A study of Mus musculus with 2 samples.

Results

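The metallothionein genes Mt1, Mt2 and Mt3 were taken by symbol, and are 3 of the 28692 genes in the matrices of a single-cell RNA study of the mouse habenula. The habenula lies at the back of the thalamus on each side and has medial (MHb) and lateral (LHb) divisions. The study holds 2 droplet libraries, 1 per group, each made from the pooled habenula punches of 4 male C57BL/6 mice aged 50 to 55 days. Mice of the foot shock group were habituated to the chamber for 10 min per day on 7 days and then received 30 shocks of 0.3 mA, each of 1 s, in a session of 60 min, straight after which tissue was taken. Control mice came straight from their home cages, so chamber exposure and shock cannot be told apart. Both groups were handled for 5 min per day on 7 days, and in both the brain was perfused, sliced and kept in a solution with blockers of firing, glutamate receptors, transcription and translation. That solution also held glutathione ethyl ester and N-acetyl-cysteine, 2 thiol compounds, in both groups. With 1 library per group there are no replicates, so no test between groups was possible, and every interval below covers counting error only.

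Metallothioneins are small proteins rich in cysteine that bind zinc and copper and can give up the metal again. Mt1 and Mt2 are the widely expressed members. In mouse their transcription is raised by zinc through the factor Mtf1, by glucocorticoids and by oxidative stress, and in brain they are best known from astrocytes. Mt3 is the member enriched in brain, where it is known from neurons as well as astrocytes, and it is much less inducible by metals. Mt4, the remaining mouse member, belongs to stratified epithelium and had 0 UMIs in the kept cells of both libraries, which allows a level of up to 0.210 CPM in foot shock and 0.192 CPM in control (CPM, UMIs of the gene per 1000000 UMIs).

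The genes lie side by side on the plus strand of chromosome 8. In the GENCODE annotation of GRCm38, Mt3 (ENSMUSG00000031760) spans chr8:94152607-94154146, Mt2 (ENSMUSG00000031762) spans chr8:94172664-94173568 and Mt1 (ENSMUSG00000031765) spans chr8:94179082-94180327, each as a protein-coding gene of 3 exons. Mt2 and Mt1 are separated by 5513 bases, and Mt3 and Mt2 by 18517 bases. No run of 50 bases in the transcripts of Mt1, Mt2 or Mt3 occurs in a transcript of any other gene of that annotation, so reads of that length from the transcripts can be told apart between members. An antisense gene, Gm45774, overlaps Mt2 on the opposite strand and is not among the genes of the matrices. Because metal induction acts on the start of the gene, the promoters of the members are shown, from 250 bases before to 50 bases after the RefSeq start (GRCm38.p6, plus strand, 5′ to 3′). The windows are chr8:94178839-94179138 for Mt1, chr8:94172368-94172667 for Mt2 and chr8:94152357-94152656 for Mt3. Capitals mark matches, on either strand, to the core of the metal response element bound by Mtf1, spelled TGCACNC or TGCGCNC.
Mt1: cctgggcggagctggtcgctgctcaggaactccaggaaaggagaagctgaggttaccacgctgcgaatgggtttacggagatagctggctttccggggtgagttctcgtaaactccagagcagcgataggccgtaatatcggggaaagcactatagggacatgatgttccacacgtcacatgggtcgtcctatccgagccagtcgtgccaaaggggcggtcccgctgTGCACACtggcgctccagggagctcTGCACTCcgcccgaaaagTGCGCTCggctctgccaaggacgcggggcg
Mt2: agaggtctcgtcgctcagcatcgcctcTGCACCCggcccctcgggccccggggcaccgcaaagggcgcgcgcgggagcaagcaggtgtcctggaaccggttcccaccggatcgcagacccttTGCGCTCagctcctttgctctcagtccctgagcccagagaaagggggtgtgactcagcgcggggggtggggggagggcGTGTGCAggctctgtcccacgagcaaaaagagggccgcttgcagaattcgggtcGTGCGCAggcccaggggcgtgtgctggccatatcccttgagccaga
Mt3: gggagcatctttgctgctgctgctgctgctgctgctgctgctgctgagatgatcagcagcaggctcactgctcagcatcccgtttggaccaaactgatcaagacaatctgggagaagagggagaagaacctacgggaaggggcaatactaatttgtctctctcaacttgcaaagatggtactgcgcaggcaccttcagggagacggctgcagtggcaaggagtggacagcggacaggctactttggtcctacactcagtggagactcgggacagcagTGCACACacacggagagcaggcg
The Mt2 window held 4 matches, the Mt1 window 3 and the Mt3 window 1, with no overlap between matches. Of 32851 mouse promoter windows of 300 bases, 0.517% held at least 4 matches, 1.97% at least 3 and 25.7% at least 1. The spelling TGCACNC was found in 12.6% of windows and TGCGCNC in 15.4%. The core of the antioxidant response element, TGACNNNGC, had 1 match in the Mt2 window, apart from the capitals, and 0 in the other windows, against 12.4% of all windows. The full palindromic glucocorticoid response element had 0 matches in all 3 windows and was found in 0.00913% of windows. Its shorter core TGTTCT also had 0 matches in all 3 and was found in 19.0%. In mouse the known glucocorticoid elements of this cluster lie further upstream. A match says only that these letters are in the window. Likewise, a count of 0 says only that they are not in it. The windows rest on the RefSeq start, and sequence before or past them and other start sites were not searched. The counts are thus not those of the whole promoter.

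The foot shock library held 22189951 unique molecular identifiers (UMIs, each a tagged RNA molecule) and the control library 23095501, and 4771 and 4880 cells were kept, with medians of 2698 and 2416.5 UMIs per cell. Cells were clustered and named from marker genes, and 9 classes had at least 50 cells in each library. Levels in CPM are the UMIs of the gene scaled to the UMI total of the class in that library. A UMI is read from the 3′ end and counts once per molecule, so levels of different genes need no scaling by length. Free RNA, which enters every droplet, was measured in barcodes of 10 to 100 UMIs. A class of 503 keratin epithelial cells came from foot shock only. All 5 MHb-like clusters held at least 5 of their marker genes, the 4 LHb-like clusters at least 4 and the 2 astrocyte-like clusters at least 9. The libraries shared 32 cell barcodes, where 31.6 were expected at random.

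Astrocyte-like cells held by far the highest levels of all 3 genes among these 9 classes. Mt1 stood at 19900 CPM in foot shock (95% Poisson interval 19262 to 20553) and 10848 CPM in control (10610 to 11090). Mt2 stood at 10401 CPM in foot shock and 4188 CPM in control, and Mt3 at 4890 and 3740 CPM. The 3 genes together thus made up a sum of 35190 CPM in foot shock and 18777 CPM in control. The astrocyte-like class held 20.1% of all Mt1 UMIs in cells of the foot shock library and 44.7% in control, from 141 cells in foot shock and 575 in control.

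**Figure D1:**
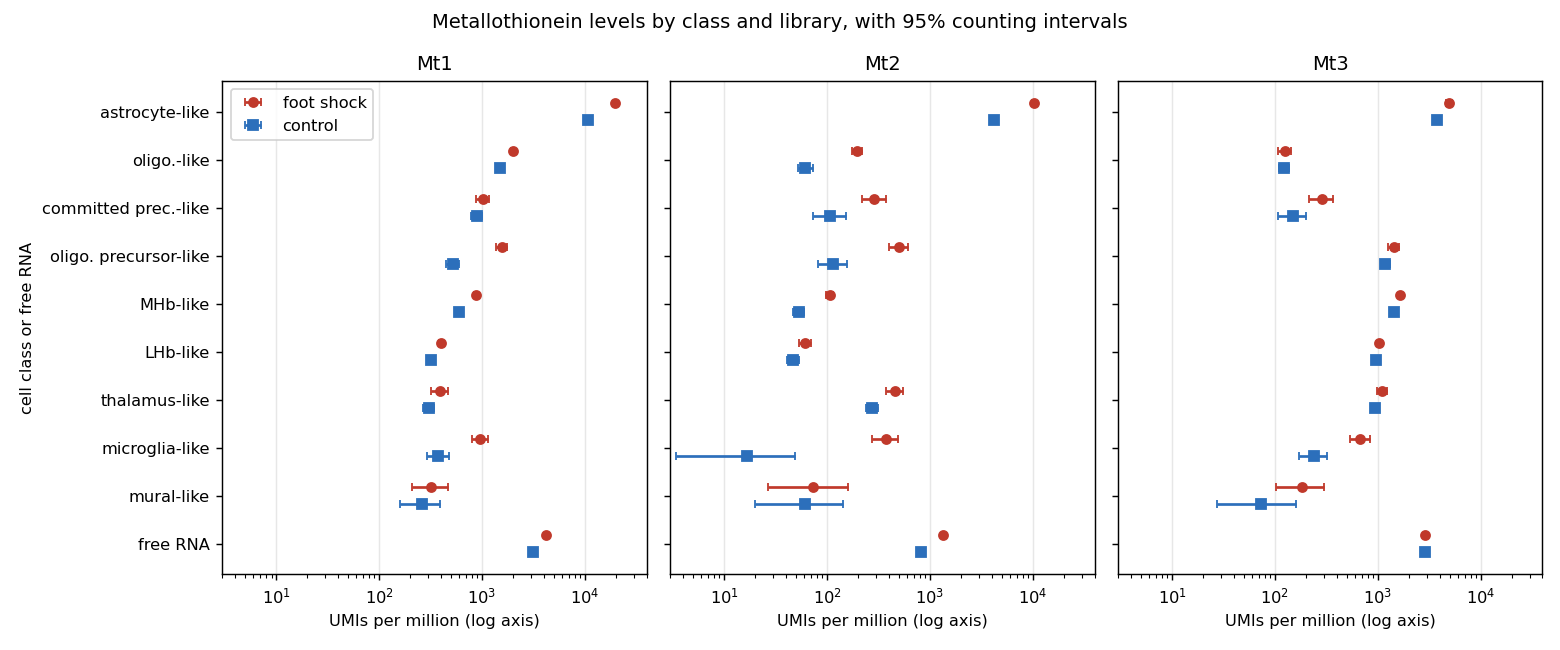
Level of Mt1, Mt2 and Mt3 (CPM, log axis) in 9 cell classes and in free RNA, with foot shock as circles above control as squares and bars for exact 95% Poisson intervals. Astrocyte-like cells lie furthest right in every panel, with Mt1 at 19900 CPM in foot shock and 10848 CPM in control. For Mt1, free RNA lies next, at 4194 and 3127 CPM. Oligodendrocyte-like cells are the next cell class for Mt1 but have 124 CPM and 123 CPM of Mt3.

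Outside astrocytes the members had different orders over the classes. Mt1 was next highest in oligodendrocyte-like cells in both libraries, at 1989 CPM in foot shock and 1508 CPM in control, above all neuronal classes. Among the neuronal classes compared it was highest in the MHb-like class, at 871 CPM in foot shock and 606 CPM in control. LHb-like neurons had 403 and 322 CPM and thalamus-like neurons 389 and 304 CPM. The last pair did not differ beyond their intervals in either library, nor did thalamus-like and mural-like cells. Within the oligodendrocyte lineage, oligodendrocyte-like cells had the highest level of Mt1 and the lowest of Mt3, while MHb-like neurons had the most of both among these neuronal classes. After astrocytes Mt3 was highest in MHb-like neurons, at 1663 CPM in foot shock and 1453 CPM in control, followed by oligodendrocyte precursor-like cells, at 1429 and 1187 CPM. LHb-like neurons had 1040 and 957 CPM and thalamus-like neurons 1098 and 931 CPM, with overlapping intervals. In oligodendrocyte-like cells it was 124 and 123 CPM. Committed precursor-like cells, the stage between precursor and myelinating cell, had 284 and 149 CPM, and in control their interval overlapped that of oligodendrocyte-like cells.

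In the other 8 of the 9 classes Mt2 was at most 497 CPM, and the neuronal class with most of it was the thalamus-like one. Thalamus-like neurons had 454 CPM of Mt2 in foot shock and 274 CPM in control, against 107 and 53.0 CPM in MHb-like neurons and 61.3 and 46.7 CPM in LHb-like neurons. The intervals of the thalamus-like level, 376 to 543 CPM and 238 to 314 CPM, do not reach those of the habenula neurons. Oligodendrocyte-like cells had 197 and 61.7 CPM.

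Astrocyte-like cells show how the members differed between the libraries in the class where, of the 9, they are most abundant. Mt2 was 2.48 times higher in foot shock (exact 95% interval of the ratio 2.34 to 2.63), Mt1 1.83 times (1.76 to 1.91) and Mt3 1.31 times (1.21 to 1.41). Of the 3 members, 2 were thus at least 1.5 times higher, as were 13.6% of the 6220 genes with at least 20 UMIs in the class. Fewer genes passed where UMIs were more numerous. Among the 1147 genes with at least 100 UMIs, 3.49% were 1.5 times higher, and only 5 were as high as Mt2, itself included, and 13 as high as Mt1. Among the 43 genes with at least 1000 UMIs, Mt2 and Mt1 had the highest and next highest ratio.

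The higher values in astrocytes were spread over the cells. The median cell had 18385 CPM of Mt1 in foot shock, against 9834 CPM in control, and the tenth percentile of the foot shock cells, 9470 CPM, lay close to the control median. For Mt2 the median cell had 9930 CPM in foot shock and 3673 CPM in control, and the tenth percentile of foot shock cells, 3937 CPM, was above the control median. Mt3 medians were 4371 and 3451 CPM. Median depth of the kept cells was 1178 UMIs in foot shock and 1181 in control. Both lie just above the minimum of 1000 UMIs, so their likeness does not show that astrocyte depth was matched. Both astrocyte clusters showed the same order. The larger, led by Gm3764 and Etnppl, had an Mt2 ratio of 2.50 (2.34 to 2.66) and an Mt1 ratio of 1.82, and the smaller, led by Gfap and Aqp4, 2.32 (2.01 to 2.68) and 1.69. The Gfap cluster had more Mt1 in each library, 28790 CPM in foot shock and 17021 CPM in control, against 18172 and 9999 CPM in the larger one, and more Mt3, 8302 and 6174 CPM against 4227 and 3406 CPM. Astrocytes lay close to the depth minimum of 1000 UMIs. With a minimum of 500 UMIs the class held 901 cells in foot shock and 1172 in control, and the Mt2 ratio was 2.65. At 1000 UMIs it held 141 and 575, so the minimum left out a larger part of the foot shock astrocytes.

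**Figure D2:**
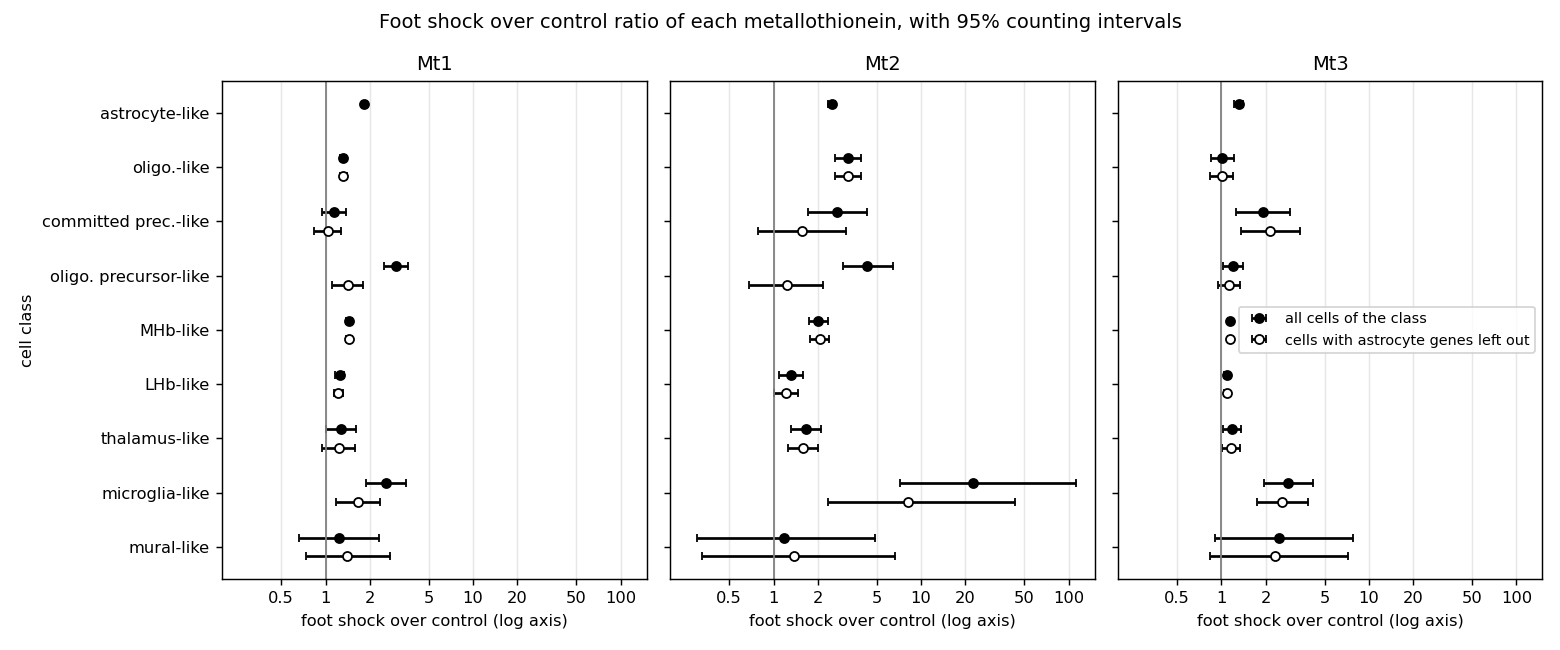
Foot shock over control ratio (log axis) of each metallothionein in 9 classes, with filled circles for all cells of the class, open circles with cells that carry astrocyte transcripts left out, and bars for exact 95% intervals. The Mt2 ratio in oligodendrocyte precursor-like cells is 4.33 with all cells and 1.23 without those cells, whereas in oligodendrocyte-like cells it is 3.19 both ways.

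In oligodendrocyte-like cells, the myelinating cells, Mt2 differed and Mt3 hardly did. Mt2 had 197 CPM (331 UMIs) in foot shock and 61.7 CPM (146 UMIs) in control, a ratio of 3.19 (2.62 to 3.91). Mt1 was 1.32 times higher (1.26 to 1.38), and the Mt3 ratio was 1.01 (0.843 to 1.21). Of the 3 members, 1 was at least 1.5 times higher, beside 5.35% of 9115 genes, and 28 genes, Mt2 included, had a ratio as high as that of Mt2. The share of these cells with an Mt2 UMI, each cell thinned to 1000 UMIs, was 15.6% in foot shock (13.2 to 18.3%) and 5.90% in control (4.57 to 7.48%). Unthinned, 25.0% and 11.9% of cells had one, at median depths of 1845 and 2067 UMIs. All 3 oligodendrocyte clusters had an Mt2 ratio above 2, of 3.40 in the cluster led by Mal and Opalin, 2.38 in that led by Anln and Hapln2, and 3.12 in that led by Ttyh2. Mt1 did not follow throughout. Its ratio was 1.38 in the Mal cluster and 1.20 in the Anln cluster, and in the Ttyh2 cluster, of 71 foot shock and 169 control cells, it was 0.807 (0.668 to 0.971).

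MHb-like neurons, which use acetylcholine and tachykinins beside glutamate, had higher values of all 3 genes in foot shock. Mt1 was 871 CPM in foot shock and 606 CPM in control, 1.44 times higher (1.37 to 1.51). Mt2 was 107 CPM (602 UMIs) and 53.0 CPM (266 UMIs), 2.02 times higher (1.74 to 2.34). Mt3 was 1663 and 1453 CPM, 1.14 times higher (1.11 to 1.18). Of the 3 members, 1 passed 1.5 times, beside 2.92% of 11768 genes, and 85 genes, Mt2 included, had a ratio at least as high as Mt2. Thinned to 1000 UMIs, 9.89% of foot shock cells and 5.19% of control cells had an Mt2 UMI, while 53.1% and 41.7% had one of Mt1 and 77.8% and 72.5% one of Mt3. The Mt2 ratio was 2.01 in the cluster led by Nppa and Nrgn, 2.45 in that led by Tac1 and Cck, and 2.13 and 2.01 in the clusters led by Synpr and Slc5a7. It was 1.11 (0.680 to 1.80) in the cluster led by Ascl4. The Mt1 ratios of these clusters ran between 0.994 and 1.56. The lowest was in the smallest of them, led by Synpr, Slc5a7 and Slc17a7, where Mt1 was 689.8 CPM in foot shock and 694 CPM in control (0.994, 0.818 to 1.21) and Mt3 1467 and 1488 CPM (0.986, 0.864 to 1.13).

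LHb-like neurons, named for the glutamatergic cells of the lateral part, had smaller differences, and their clusters were not alike. Over the class Mt1 was 1.25 times higher in foot shock (1.16 to 1.34), Mt2 1.31 times (1.09 to 1.58) and Mt3 1.09 times (1.04 to 1.13), so 0 of 3 passed 1.5 times, beside 3.41% of 12048 genes. With clusters weighted equally the Mt2 ratio was 1.62, past 1.5 times. In the cluster led by Tmem255a and Chrm2, Mt1 was 647 CPM in foot shock and 690 CPM in control, a ratio of 0.938 (0.864 to 1.02), and the Mt2 ratio was 0.881 (0.685 to 1.13). In the cluster led by Rasgrf2, Mt1 was 183 and 116 CPM, a ratio of 1.58 (1.35 to 1.86), and the Mt2 ratio was also 1.58. The cluster led by Cacna2d1 had an Mt1 ratio of 2.20 and an Mt2 ratio of 4.17 (2.06 to 8.97), from 29 and 12 UMIs. The Tmem255a cluster thus held the highest Mt1 level of the LHb in each library, with intervals of both ratios that include 1. Thalamus-like neurons, of 57 and 130 cells, had ratios of 1.28 for Mt1, 1.65 for Mt2 (1.31 to 2.08) and 1.18 for Mt3. There 1 member passed 1.5 times, beside 8.29% of 7266 genes. Their median depth was 3608 UMIs in foot shock and 7029.5 in control.

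Over all 21 clusters with at least 20 cells in each library, the Mt2 ratio was above 1 in 20, with a median of 2.32, the Mt1 ratio in 17, with a median of 1.43, and the Mt3 ratio in 17, with a median of 1.15. These clusters share their library and are not replicates. Their ratios use all cells, also those that carry astrocyte transcripts, and no matching share over all genes is given. The ratio of Mt2 exceeded that of Mt1 in 8 of 9 classes, the exception being mural-like cells with 6 and 5 Mt2 UMIs, and in 6 of 8 once cells that carry astrocyte transcripts were left out of the classes other than astrocytes.

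In 3 glial classes most of the foot shock Mt2 UMIs lay in a few cells that also carried astrocyte transcripts. These were counted as cells with at least 2 UMIs of 5 astrocyte genes, namely Aqp4, Gja1, Gjb6, Ntsr2 and Slc7a10, a rule chosen after the data were seen. Oligodendrocyte precursor-like cells had 497 CPM of Mt2 in foot shock and 115 CPM in control, a ratio of 4.33 (2.95 to 6.49), with 2 of 3 members at 1.5 times or more beside 15.1% of 5135 genes. Of their 95 foot shock UMIs of Mt2, 73 lay in 6 of the 108 cells, which carried such transcripts, and so did 175 of 297 Mt1 UMIs. Without these cells the Mt2 values were 124 and 101 CPM, a ratio of 1.23 (0.684 to 2.18), and the Mt1 ratio was 1.42 (1.11 to 1.80), against 2.99 with them. The Mt3 ratio was 1.12 without and 1.20 with them. From a minimum of 500 UMIs per cell, with 308 and 417 cells, the class had ratios of 1.67 for Mt1 and 1.37 for Mt2, and with doublet calls kept 1.42 and 1.18. Summed over the 5 astrocyte genes, the class had 267 CPM in foot shock and 139 CPM in control, and 45.1 and 67.2 CPM without those cells.

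Microglia-like cells, the resident macrophages of brain, had the largest Mt2 ratio of the 9 classes, 22.4 (7.20 to 112), from 47 UMIs in foot shock and 3 in control. All 3 members were at least 1.5 times higher, beside 21.3% of 2171 genes. Of the 47 UMIs, 31 lay in 5 of 70 foot shock cells with astrocyte transcripts, whereas 0 of 115 control cells carried them. Without those cells the ratio was 8.11 (2.32 to 43.4), from 16 and 3 UMIs, that of Mt1 1.66 (1.17 to 2.34), against 2.56 with them, and that of Mt3 2.58 (1.75 to 3.86), against 2.82. From 500 UMIs per cell, with 133 and 165 cells, the ratios were 1.34 for Mt1, 4.57 for Mt2 and 1.34 for Mt3. Summed over the 5 astrocyte genes, microglia-like cells had 309 CPM in foot shock and 16.7 CPM in control, and 42.2 and 16.7 CPM without those cells.

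Committed precursor-like cells had 55 and 32 Mt2 UMIs, a ratio of 2.68 (1.70 to 4.29), with 2 of 3 members past 1.5 times beside 12.9% of 4116 genes. Their foot shock cells with astrocyte transcripts, 3 of 67, held 36 of the 55 UMIs, and 4 of 93 control cells held 13 of 32. Without them the ratio was 1.56 (0.781 to 3.11). Mural-like cells of the vessel wall had few UMIs, and 1 of 3 members passed 1.5 times beside 9.31% of 1010 genes. That was Mt3, with 15 and 6 UMIs and a ratio of 2.47 (0.906 to 7.77), which was 1.29 with doublet calls kept and 1.53 from 500 UMIs per cell. In the neuronal classes and in oligodendrocyte-like cells the same step moved the ratio less. The Mt2 ratio without such cells was 2.06 in MHb-like neurons, 1.22 in LHb-like neurons, 3.19 in oligodendrocyte-like cells and 1.59 in thalamus-like neurons. A cluster of 62 cells with MHb genes, in which 95.2% of cells carried astrocyte transcripts, had been left out of the MHb-like class as mixed. It held 54 foot shock cells and 8 control cells, and with it the MHb-like ratios were 1.56 for Mt1 and 2.83 for Mt2. Another cluster left out as mixed, of 27 cells led by Sgk1, Mal and Opalin, held oligodendrocyte genes, and 100% of its cells carried astrocyte transcripts. Its 22 foot shock cells had 2512 CPM of Mt2 (164 UMIs) and its 5 control cells 261 CPM (4 UMIs). With it the oligodendrocyte-like ratios were 1.43 for Mt1, 4.50 for Mt2 and 1.43 for Mt3, so the near equality of Mt3 in that class was measured without this cluster. How such cells arose was not tested.

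The make-up of the metallothionein UMIs differed between classes by more than counting error. Mt2 made up 34.3% of the Mt1 and Mt2 UMIs of astrocyte-like cells in foot shock (exact Clopper-Pearson 95% interval 33.1 to 35.6%) and 27.9% in control (27.0 to 28.7%). In oligodendrocyte-like cells the shares were 9.01% (8.10 to 9.98%) and 3.93% (3.33 to 4.61%), and in MHb-like neurons 10.9% and 8.04%. LHb-like neurons had 13.2% and 12.7%, with overlapping intervals. Thalamus-like neurons stood apart from the MHb-like and LHb-like neurons, with 53.8% (47.0 to 60.6%) and 47.4% (42.7 to 52.2%), and kept 55.0% and 48.5% without cells that carry astrocyte transcripts. The Mt2 share was higher in foot shock in 8 of 9 classes, which is the count of the ratios above in another form. Mt3 was the bulk of the 3 genes in habenula neurons, with 63.0% in foot shock and 68.8% in control in MHb-like neurons and 69.1% and 72.2% in LHb-like neurons. It was 5.38% and 7.27% in oligodendrocyte-like cells.

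**Figure D3:**
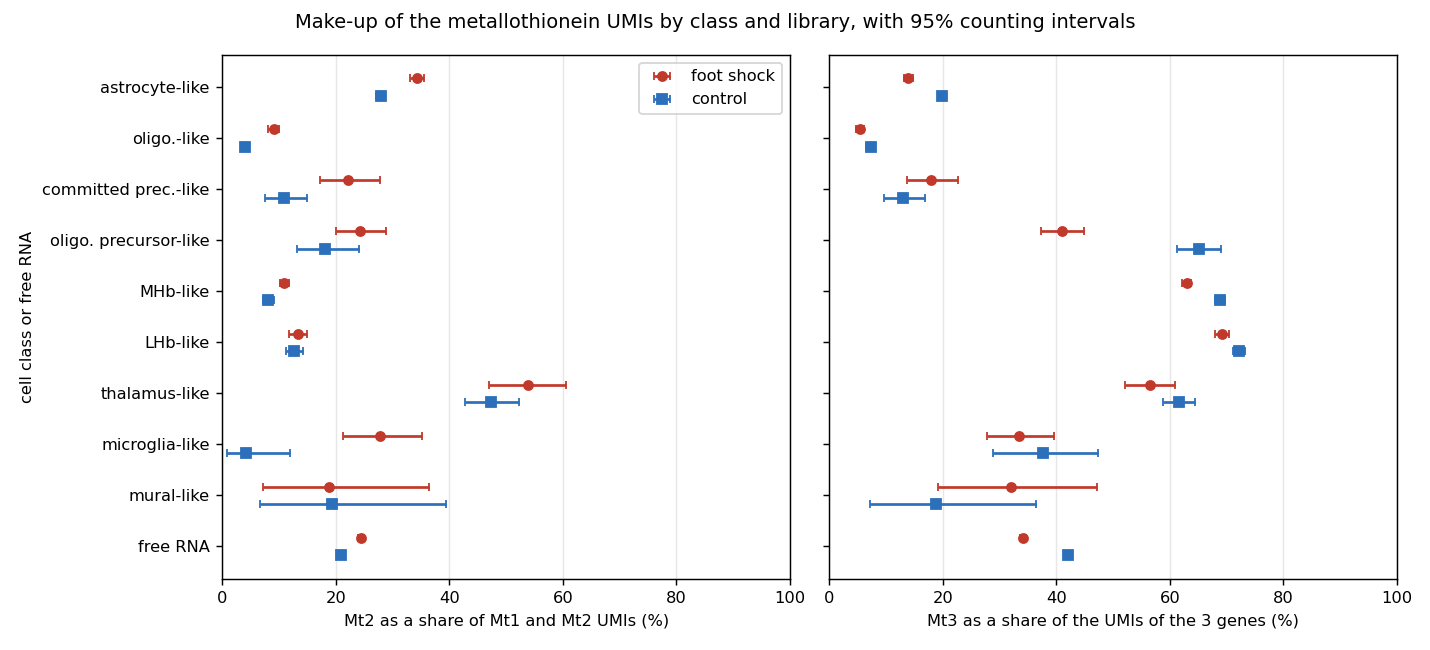
Share of Mt2 among Mt1 and Mt2 UMIs (left, %) and of Mt3 among the UMIs of the 3 genes (right, %) by class, with foot shock as circles above control as squares and bars for exact 95% intervals. Among the classes drawn, thalamus-like neurons lie furthest right on the left panel, at 53.8% and 47.4%, and oligodendrocyte-like cells furthest left on the right panel, at 5.38% and 7.27%.

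Of the classes compared, the members went together most within single astrocyte-like cells, where Mt1 and Mt2 UMIs per cell were also most numerous. Across 141 foot shock astrocyte-like cells Spearman's rho between Mt1 and Mt2 CPM was 0.667, and across 575 control cells 0.436, with 0.464 and 0.350 between Mt1 and Mt3. The cells of a library share its preparation, and these values are descriptions. In oligodendrocyte-like cells rho between Mt1 and Mt2 was 0.226 and 0.0611, in LHb-like neurons 0.135 and 0.305, and in MHb-like neurons 0.174 and 0.141, where Mt2 was mostly 0 or 1 UMI per cell.

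Free RNA was rich in metallothioneins in both libraries, and is set beside the classes with low levels. In free RNA Mt1 had 4194 CPM in foot shock and 3127 CPM in control, Mt2 1357 and 822 CPM, and Mt3 2873 and 2862 CPM. The ratios were 1.34 (1.31 to 1.37), 1.65 (1.58 to 1.73) and 1.00 (0.977 to 1.03), so 1 of 3 members was 1.5 times higher and 0 were lower, beside 8.14% and 10.6% of 11948 genes. Against all kept cells, Mt1 was 3.28 times higher in free RNA in foot shock and 2.76 times in control, Mt2 3.75 and 3.05 times, and Mt3 2.41 and 2.57 times. Among 10 astrocyte markers the same quotient ran between 0.835 for Slc1a3 and 2.45 for Ntsr2 in foot shock and between 0.389 for Slc1a3 and 1.47 for Aldoc in control, so that the metallothioneins other than foot shock Mt3 lay above all of them. Mt3 in foot shock, at 2.41, lay just under Ntsr2. Without mitochondrial genes Mt1 was the gene of rank 15 in foot shock free RNA and rank 31 in control, against rank 77 and 74 in cells.

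If free RNA has 1 make-up, the member that is lowest relative to it bounds how much of a low class level it could give. The make-up was not the same in all barcodes. In foot shock barcodes of 1 to 9 UMIs Mt2 had 862 CPM and Mt3 1022 CPM, against 1357 and 2873 CPM in free RNA. In control the values were 546 and 1331 CPM, against 822 and 2862 CPM. The bounds below thus hold only for the make-up measured as free RNA, and bounds from other barcodes were not tested. In oligodendrocyte-like cells that member was Mt3, at 4.33% of its free RNA level in foot shock and 4.30% in control. Free RNA of the measured make-up could then give at most 9.13% and 8.91% of their Mt1 level, and 29.8% and 57.3% of their Mt2 level. In MHb-like neurons the lowest member was Mt2, at 7.87% and 6.44% of its free RNA level, so this comparison sets no bound below the whole level for Mt2 there, while free RNA could give at most 37.9% and 33.3% of Mt1 and 13.6% and 12.7% of Mt3. For thalamus-like neurons the bounds on Mt2 were 27.7% and 29.2%, and for foot shock microglia-like cells 84.0%. Keratin epithelial cells serve as a class where Mt3 was nearly absent. They had 17.03 CPM of Mt3, 0.593% of the free RNA level, with 1.79% of cells holding an Mt3 UMI at a median of 2300 UMIs, yet 783 CPM of Mt1 and 417 CPM of Mt2. An estimate of another kind took the share of free RNA in a class from the marker list that was lowest there relative to free RNA. It gave 0.285% of the UMIs of MHb-like neurons in foot shock and 2.02% in control, and 0.0501% and 1.24% for LHb-like neurons. The list was that of neutrophils in foot shock and that of keratin epithelial cells in control, so these shares rest on different genes in each library. With them subtracted, the ratios were 1.56 for Mt1 and 2.78 for Mt2 in MHb-like neurons, and 1.40 and 1.64 in LHb-like neurons, so Mt1 in MHb-like neurons and Mt2 in LHb-like neurons then passed 1.5 times.

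**Figure D4:**
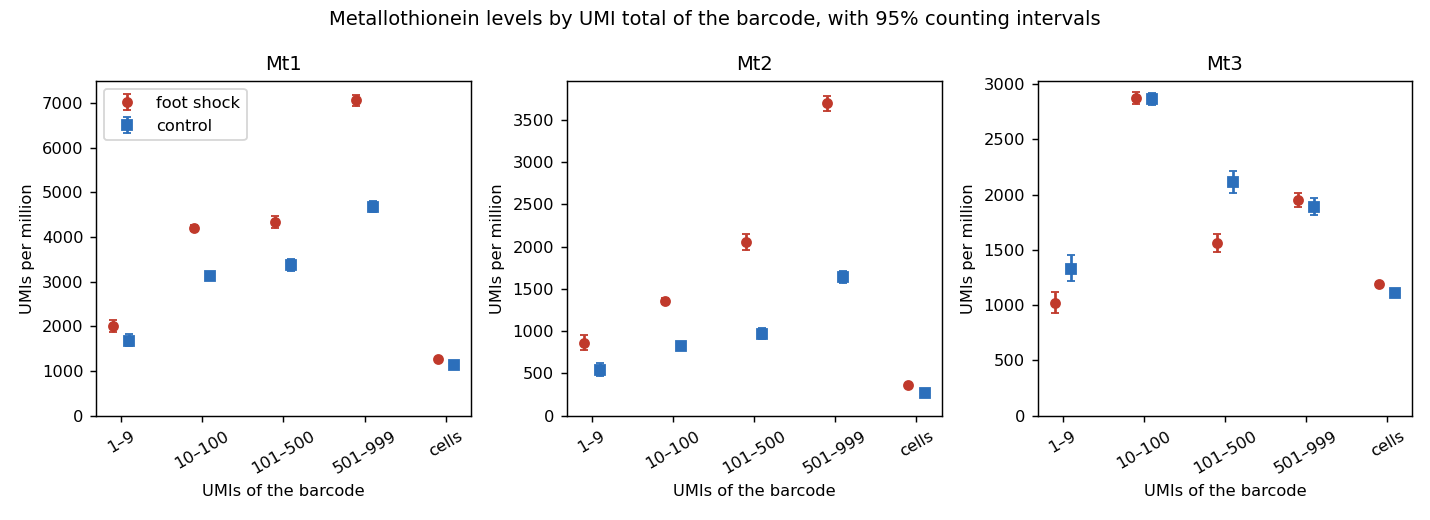
Level of each metallothionein (CPM) in barcodes of 1 to 9, 10 to 100, 101 to 500 and 501 to 999 UMIs and in kept cells, with foot shock as circles left of control as squares and bars for exact 95% Poisson intervals. Mt1 and Mt2 peak in barcodes of 501 to 999 UMIs, where Mt2 has 3692 CPM in foot shock and 1637 CPM in control.

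Genes that handle metals, and genes known to respond to oxidative stress or glucocorticoids, were read from lists beside the members. Of 25 genes of zinc transport and sensing, 10 were measured with at least 20 UMIs in astrocyte-like cells, of which 0 were at least 1.5 times higher in foot shock and 3 at least 1.5 times lower, beside 13.6% and 18.1% of all genes. The list's median log2 ratio was -0.13 and that of all genes -0.04. Slc39a1, a zinc importer of the plasma membrane, had the smallest ratio, 0.269 (0.0849 to 0.657), from 5 UMIs in foot shock and 73 in control. The next was Slc39a7, an exporter of zinc from the endoplasmic reticulum, with 0.507 from 4 and 31 UMIs. The largest were the transporters Slc39a13 and Slc39a14, both at 1.31 with intervals that include 1. The counts use ratios with 0.5 UMIs added to each library, and that places Slc39a3, with 3 and 21 UMIs, among the 3 (it was named after its values were seen). Slc39a1 also had the lowest ratio of the list in oligodendrocyte-like cells, at 57.7 and 124 CPM (ratio 0.466, 0.367 to 0.588), in MHb-like neurons, at 33.9 and 57.4 CPM (0.591, 0.489 to 0.712), and in LHb-like neurons (0.579, 0.463 to 0.722). It was 0.707 (0.576 to 0.867) in free RNA, so a lower value was measured there as well.

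Counts for the zinc list were 0 higher and 1 lower of 17 measured in MHb-like neurons, beside 2.92% and 4.48% of all genes, and 0 higher and 3 lower of 14 in oligodendrocyte-like cells, beside 5.35% and 12.9%. Slc30a1, the zinc exporter that Mtf1 also controls, had ratios of 1.27 (0.947 to 1.72) in MHb-like neurons and 1.22 (0.638 to 2.33) in oligodendrocyte-like cells. The other ends of the list were Slc39a6 (1.18) and Slc39a14 (0.831) in MHb-like neurons, and Slc39a10 (1.46) and Slc30a5 (0.495) in oligodendrocyte-like cells. In LHb-like neurons 0 of 18 measured zinc genes were higher and 2 lower, beside 3.41% and 4.86%, with Slc39a2 (1.38) and Slc30a6 (1.37) at the high end and Slc30a10 (0.649) beside Slc39a1 at the low end.

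Copper genes gave 2 higher and 0 lower of 6 measured in astrocyte-like cells, of 12 in the list, beside 13.6% and 18.1% of all genes, with a median log2 ratio of 0.51 against -0.04 for all genes. The clearest was Sod1, the copper and zinc superoxide dismutase, at 2.47 (1.27 to 4.71) from 17 and 27 UMIs. The other, Atp7b, a copper exporter, had 6 and 16 UMIs, and was named after its values were seen. The lowest ratios of the list there were 0.983 for Slc31a1 and 1.01 for Atox1. Cox17, which carries copper for cytochrome oxidase, had 319 CPM in foot shock and 214 CPM in control, a ratio of 1.49 (1.08 to 2.02). It was 1.30 (1.24 to 1.37) in MHb-like neurons, where 0 of 11 measured copper genes passed 1.5 times in either direction, and 1.25 (1.13 to 1.39) in oligodendrocyte-like cells, where 0 of 7 did. In LHb-like neurons 1 of 11 was higher, Cp, with a ratio of 1.63 (0.615 to 4.46). All genes gave 2.92% higher and 4.48% lower in MHb-like neurons, 5.35% and 12.9% in oligodendrocyte-like cells, and 3.41% and 4.86% in LHb-like neurons.

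Genes of glutathione synthesis and of the oxidative stress response under Nrf2 gave 0 higher and 2 lower of 10 measured in astrocyte-like cells, beside 13.6% and 18.1% of all genes, with a median log2 ratio of -0.29, against -0.04 for all genes. Slc7a11, the cystine transporter that feeds glutathione synthesis, had 389 CPM (72 UMIs) in foot shock and 755 CPM (549 UMIs) in control, a ratio of 0.515 (0.397 to 0.660). Keap1, which holds Nrf2 back, had 1 and 27 UMIs. Nfe2l2, which encodes Nrf2, had a ratio of 0.997, and Gpx4, a glutathione peroxidase, of 0.971. In oligodendrocyte-like cells 1 of 12 was higher, Gclc, the catalytic subunit of the first step of glutathione synthesis, at 1.55 (1.11 to 2.16), and 0 were lower, beside 5.35% and 12.9% of all genes. In MHb-like neurons 0 of 11 and in LHb-like neurons 0 of 13 passed 1.5 times in either direction, beside 2.92% higher and 4.48% lower of all genes in MHb-like neurons and 3.41% and 4.86% in LHb-like neurons. The ratios ran between 0.712 for Prdx6 and 1.14 for Gclc in MHb-like neurons. In LHb-like neurons they ran between 0.668 for Gss and 1.22 for Slc7a11.

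Genes known to be induced by glucocorticoids, with their receptors, gave 4 higher and 1 lower of 9 measured in astrocyte-like cells, beside 13.6% and 18.1% of all genes, with a median log2 ratio of 0.49 against -0.04 for all genes. Cdkn1a, a cell cycle inhibitor, had 124 CPM in foot shock and 34.4 CPM in control, a ratio of 3.62 (1.96 to 6.64), and the clock gene Per1 a ratio of 2.75 (1.29 to 5.73). The other 2, named after their values were seen, were Nfkbia at 2.55 and Tsc22d3 at 1.74. Nr3c1, the glucocorticoid receptor, was the lower one, at 0.542 (0.322 to 0.869). Next lowest was Hif3a at 0.694, from 3 and 17 UMIs. In oligodendrocyte-like cells 8 of 14 were higher and 2 lower, beside 5.35% and 12.9% of all genes. Sgk1, a kinase, had 1314 CPM (2208 UMIs) in foot shock and 71.8 CPM (170 UMIs) in control, a ratio of 18.3 (15.6 to 21.5), and Nfkbia, an inhibitor of NF-kB, a ratio of 8.20 (6.26 to 10.9). The 2 lower ones were Plin4 at 0.501 and Bcl6 at 0.440. MHb-like neurons gave 3 higher and 0 lower of 11, beside 2.92% and 4.48% of all genes. These were Sgk1 at 7.84, from 44 and 5 UMIs, Ddit4 at 2.55 (1.73 to 3.83) and, named after its values were seen, Dusp1 at 1.52 (0.807 to 2.95). The lowest ratios there were 0.840 for Fkbp5 and 0.967 for Per1, both with intervals that include 1. Sgk1 in free RNA had a ratio of 6.06 (4.63 to 8.05), and the part of free RNA in the neuronal value was not tested. In LHb-like neurons 0 of 13 were higher and 2 lower, beside 3.41% and 4.86% of all genes, with Sgk1 at 1.45 (1.03 to 2.04) and Nr3c1 at 0.654 (0.507 to 0.839). The other lower one was Zbtb16 at 0.636 (0.267 to 1.41), from 10 and 21 UMIs.

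Of 9 genes of reactive astrocytes, 2 were measured in astrocyte-like cells and 0 passed 1.5 times in either direction. Of all genes 13.6% were higher and 18.1% lower, so a count over 2 genes says little. Gfap, the intermediate filament of astrocytes, had 124 CPM in foot shock and 169 CPM in control, a ratio of 0.735 (0.449 to 1.15), and Serpina3n had 5 and 15 UMIs.

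Likeness to the members over classes was measured by Pearson's r of log2(CPM + 1) across 18 class sums, 9 classes in 2 libraries, among 10648 genes with at least 200 UMIs. The sums of a library share its depth and preparation, so these values are descriptions. The 5 genes most like Mt1 were Appl2 (0.899), Fam107a (0.897), Gjb6 (0.879), Sox9 (0.872) and Itih5 (0.871). Those most like Mt2 were Etnppl (0.912), Ntsr2 (0.905), Gjb6 (0.903), Gja1 (0.876) and Tom1l1 (0.872). Gjb6 and Gja1 encode the gap junction proteins of astrocytes. For Mt3 the list was Msi1 (0.934), Enho (0.932), Dclk1 (0.928), Igdcc4 (0.926) and Mras (0.918), with no gene in common with the other lists. Among the members, r was 0.823 between Mt1 and Mt2, 0.606 between Mt2 and Mt3 and 0.451 between Mt1 and Mt3.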

How the data were processed

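RNA of single habenula cells was counted with the 10x 3′ version 2 kit. Per the submitters' processing notes, Cell Ranger 2 and the mm10 build were used, and the deposited files hold raw UMI counts per gene and barcode, not normalized by the authors. The sources used here do not give the strand setting of the counting. From these counts, barcodes with at least 1000 UMIs, 500 to 6000 genes and at most 20% mitochondrial UMIs were kept, and doublets called by Scrublet (expected rate 0.08, in scanpy 1.11.5) were removed: 69 in foot shock and 249 in control. Cells of both libraries were clustered together (2000 variable genes without metallothioneins, 30 components, 15 neighbours, Leiden resolution 1.0). A cluster was named when it held at least 3 markers of a list. The MHb-like and LHb-like names also needed at least 1 count of Pou4f1 per 10000. Clusters in which more than 50% of cells had at least 2 UMIs of 5 astrocyte genes, outside astrocytes and ependyma, were left out as mixed, 76 foot shock and 13 control cells. UMIs were summed per class and library and divided by the class total. Intervals at 95% are exact (Poisson for levels, conditional binomial for ratios, Clopper-Pearson for shares) and cover counting error only. A value of 0 was given the limit of 3 counts. Shares of cells were thinned to 1000 UMIs. Counts of genes past 1.5 times used genes with at least 20 UMIs over both libraries, with 0.5 UMIs added. With 1 library per group there were no replicates, and no test, p-value or standard error was computed. Metallothioneins were named throughout, as were the 5 most like genes of each member. List members were to be named at both ends, the 2 highest and 2 lowest measured in each class described. Not all of these are given above, and some others were named after their values were seen. Members and lists were chosen with earlier results of these data known. The scripts were tested on simulated data. Of the alternatives, 17 were planned and 4 chosen with the data in view, with TMM factors from edgeR 4.0.16.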

Additional observations from a re-analysis of the deposited data

Results flagged for a closer look

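Barcodes between free RNA and the kept cells, which belong to no class, held Mt1 and Mt2 above the control level. In barcodes of 101 to 500 UMIs Mt1 had 4340 CPM (4339.7) in foot shock and 3371 CPM in control, and Mt2 had 2054 CPM in foot shock and 973 CPM in control, while Mt3 was below the control level there, at 1562 CPM in foot shock and 2114 CPM in control. In barcodes of 501 to 999 UMIs Mt1 had 7065 CPM in foot shock and 4677 CPM in control, Mt2 had 3692 CPM and 1637 CPM, and Mt3 had 1950.1 CPM and 1890 CPM. These bins held 4258 and 2469 foot shock barcodes and 4490 and 1701 control barcodes. With the minimum set at 500 UMIs, astrocyte-like cells numbered 901 in foot shock and 1172 in control. What the barcodes are was not tested.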

How the results depend on the processing

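No ratio in MHb-like, LHb-like, oligodendrocyte-like or astrocyte-like cells or in free RNA moved by over 1.5 times. Of their 159 alternative values 152 were above 1, and the 7 below 1 were all of Mt3, in oligodendrocyte-like cells and free RNA, where it was 1.01 and 1.00. Values that moved by more than counting error follow, and the cause was not tested. With free RNA subtracted, at the shares from differing marker lists given in the report, Mt1 was 1.56 and Mt2 2.78 in MHb-like neurons, and Mt1 1.40 and Mt2 1.64 in LHb-like neurons. With mixed clusters kept, Mt1 was 1.56 and Mt2 2.83 in MHb-like neurons, and Mt1 1.43, Mt2 4.50 and Mt3 1.43 in oligodendrocyte-like cells. With clusters weighted equally, Mt1 was 1.35 and Mt3 1.09 in MHb-like neurons, Mt2 1.62 and Mt3 1.01 in LHb-like neurons, Mt1 1.11 in oligodendrocyte-like cells and Mt1 1.74 in astrocyte-like cells. At 2000 UMIs or more, Mt1 was 1.19 and Mt3 0.811 in oligodendrocyte-like cells. No cluster was then named astrocyte-like, oligodendrocyte precursor-like or mural-like. The clusters that held 10 astrocyte markers, of 141 and 53 cells, also held MHb-like or oligodendrocyte-like markers and were left out as mixed. Clusters with precursor markers (44 cells) and mural markers (15 cells) also held MHb-like markers and were left out likewise. In oligodendrocyte-like cells TMM scaling gave 1.40 for Mt1. In astrocyte-like cells Mt1 was 1.94 with doublets kept and Mt2 2.65 from 500 UMIs. In free RNA Mt1 was 1.19 and Mt3 0.768 in barcodes of 1 to 9 UMIs, and Mt3 was 0.976 in barcodes of 10 to 50 and 1.04 in those of 51 to 100.

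In the 5 smaller classes 19 of 162 alternative values moved by over 1.5 times. Beside those given in the report, microglial Mt2 was 11.1 with at most 10% mitochondrial UMIs and 8.42 with doublets kept, and in mural-like cells Mt1 was 0.609 and Mt2 0.504 with doublets kept, and Mt2 0.743 from 500 UMIs.

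Counts of list members in astrocyte-like cells rest on few UMIs. With members of at least 1 UMI, 4 of 22 zinc genes were higher and 7 lower, 3 of 11 copper genes higher and 1 lower, 3 of 15 glutathione genes higher and 3 lower, 7 of 17 glucocorticoid genes higher and 3 lower, and 4 of 8 reactive genes higher and 1 lower, beside 24.4% higher and 19.6% lower of all genes. With at least 100 UMIs, 0 of 2 zinc genes and 0 of 1 copper gene passed in either direction, 0 of 4 glutathione genes were higher and 1 lower, and 1 of 4 glucocorticoid genes was higher and 1 lower, beside 3.49% and 11.1% of all genes. At 2 times or more, 0 of 10 zinc genes were higher and 1 lower, 1 of 6 copper genes higher and 0 lower, 0 of 10 glutathione genes higher and 1 lower, and 3 of 9 glucocorticoid genes higher and 0 lower, beside 4.63% and 7.44%.

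No paired analysis was possible because each group is 1 library. Leaving out a replicate was not possible for the same reason. Leaving out cells with astrocyte transcripts, keeping mixed clusters, weighting clusters equally and the barcodes of 1 to 9 UMIs were chosen after the data were seen.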

Other observations

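Classes with fewer than 50 cells in a library were kept out of the counts over classes. Ependymal-like cells, which line the ventricle, had Mt1 at 8965 CPM in foot shock and 11014 CPM in control, Mt2 at 3066 and 3421 CPM and Mt3 at 5261 and 6538 CPM, from 38 and 15 cells. Here the ratios were below 1, at 0.814 (0.734 to 0.904), 0.896 (0.746 to 1.08) and 0.805 (0.704 to 0.923), the opposite side from astrocyte-like cells, and the difference between the classes was not tested. Endothelial-like cells, 46 and 64 in number, had ratios of 1.75 (1.33 to 2.32) for Mt1, 2.67 (1.63 to 4.48) for Mt2 and 4.06 (2.46 to 6.93) for Mt3. Fibroblast-like cells, 50 and 17 in number, had 128 Mt2 UMIs in foot shock and 6 in control. A class named other neurons held 34 and 88 cells. Its Mt3 level was 1733 CPM (1529 to 1957) in foot shock and 1427 CPM (1311 to 1549) in control. Its intervals overlapped those of MHb-like neurons in both libraries. Mt1 was 220 and 111 CPM there, and Mt2 93.3 and 63.2 CPM.

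Some genes of the reactive astrocyte list that were too rare to measure in the astrocyte-like cells were measured in free RNA. Of 6 measured there, 4 were at least 1.5 times higher in foot shock and 1 lower, beside 8.14% and 10.6% of all genes. Vim, an intermediate filament, had a ratio of 2.83 (1.89 to 4.34), Lcn2 of 2.07 (1.53 to 2.83), Cd44 of 7.24 from 31 and 4 UMIs, and Steap4 of 9.35 (2.27 to 82.5) from 20 and 2 UMIs. The lower one was Timp1, at 0.568 (0.291 to 1.07) from 17 and 28 UMIs, and Gfap had a ratio of 0.701 (0.422 to 1.15) from 30 and 40 UMIs. Lcn2 was also among the leading genes of the keratin epithelial class, which came from foot shock only. Timp1 was the first leading gene of a fibroblast-like cluster of 45 cells, all from foot shock. The source of these free RNA values was not tested, and they are not a measure of astrocytes.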
